A study of Mus musculus with 830 samples.

Results

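Neurog3 (also called Ngn3), a basic helix-loop-helix (bHLH) transcription factor, sets off the endocrine programme in mouse pancreas and gut. It acts in a pulse, switches on factors such as Neurod1, Pax4 and Insm1 in cells that leave the cell cycle, and raises Notch ligands, while Notch signalling through Hes1 holds Neurog3 down in neighbouring progenitors. The comparison described here sets single endoderm cells with GFP on both Neurog3 alleles (genotype Ngn3-GFP/GFP, called HM) against cells with GFP on 1 allele and a + allele (Ngn3-GFP/+, called HZ), all from embryos with 21 somites on a C57BL/6XC3H background. The cells were chosen by genotype and stage alone: 54 HM and 149 HZ cells, 203 of the 830 cells of the series. Tissue was stained for EpCAM, an epithelial surface protein, and sorted, and cells were sequenced with Smart-seq3xpress, which reads RNA of cells sorted into wells over the length of the transcript. What the GFP allele leaves of the Neurog3 transcript, whether cells were also gated on GFP, and the number of embryos were not given in the sources used here. Both genotypes carry a GFP allele, so neither stands for an unmodified embryo. The fits over stages given below also use cells of a further genotype label, Ngn3Cre, at 21, 24 and 27 somites (106, 155 and 69 cells). What that label means for the Neurog3 alleles is not described here.

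The labels name no embryo, so the cells of a genotype count as 1 sample and the 21 somite values have no replicate check. Levels are reads of a gene summed over all cells of a genotype, as counts per 1000000 reads of that pool (CPM). The pools held 38160316 reads in HM and 63513086 in HZ. A cell had 1721 to 2172453 reads in HM, with a median of 688858, and 7656 to 1395193 in HZ, with a median of 381250, so the pooled level weighs deep cells most. HM had the larger share of shallow cells: 18 of 54 HM cells and 17 of 149 HZ cells had under 100000 reads. The median cell had reads of 7244 genes in HM and 7046 in HZ. The endoderm label held in both genotypes, with at least 3 of 12 endoderm markers at 50 CPM in 54 of 54 HM cells and 143 of 149 HZ cells. Cells with Xist but no Y-linked transcript and cells with the reverse were present in both (23 and 19 in HM, 72 and 59 in HZ, at 10 CPM), so both pools held cells of female and of male embryos. Intervals around pooled levels are exact Poisson intervals and those around shares of cells exact binomial (Clopper-Pearson) intervals at 95%. They cover counting error only, not the spread between embryos. In pools, fewer cells of a type and less RNA per cell cannot be told apart, which is why shares of cells stand beside the levels.

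Reads of Neurog3 (GRCm38 chromosome 10, 62133090 to 62134763, plus strand) were fewer in HM but not absent. The pool had 5.95 CPM in HM (5.20 to 6.77, 227 reads) and 133 CPM in HZ (131 to 136, 8478 reads), a log2 ratio of -4.49. Single cells had 0 to 57.9 CPM in HM, with a median of 0, and 0 to 1198 CPM in HZ, with a median of 18.6. At 10 CPM or more, 9 of 54 HM cells (16.7%, 7.92% to 29.3%) and 80 of 149 HZ cells (53.7%, 45.3% to 61.9%) had the transcript. With each cell thinned to 100000 reads, without the 18 HM and 17 HZ cells below that depth, the shares of cells with a read were 27.8% and 59.8%. At 50 CPM only 1 HM cell remained, against 63 HZ cells. The genotypes thus overlapped at low levels, and the levels above 57.9 CPM were found in HZ cells alone. Neurog3 reads came with other endocrine genes in HZ but mostly without them in HM. Over a panel of 12 endocrine genes (Neurog3, Neurod1, Fev, Pax4, Pax6, Insm1, Chga, Chgb, Gcg, Ghrl, Pyy and Pcsk2), the 9 HM cells with Neurog3 at 10 CPM had a median of 0 panel genes at 50 CPM. The 80 HZ cells had a median of 7, Neurog3 included. The 9 HM cells were deep, at a median of 909109 reads, and held 2 to 33 Neurog3 reads each.

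**Figure D1:**
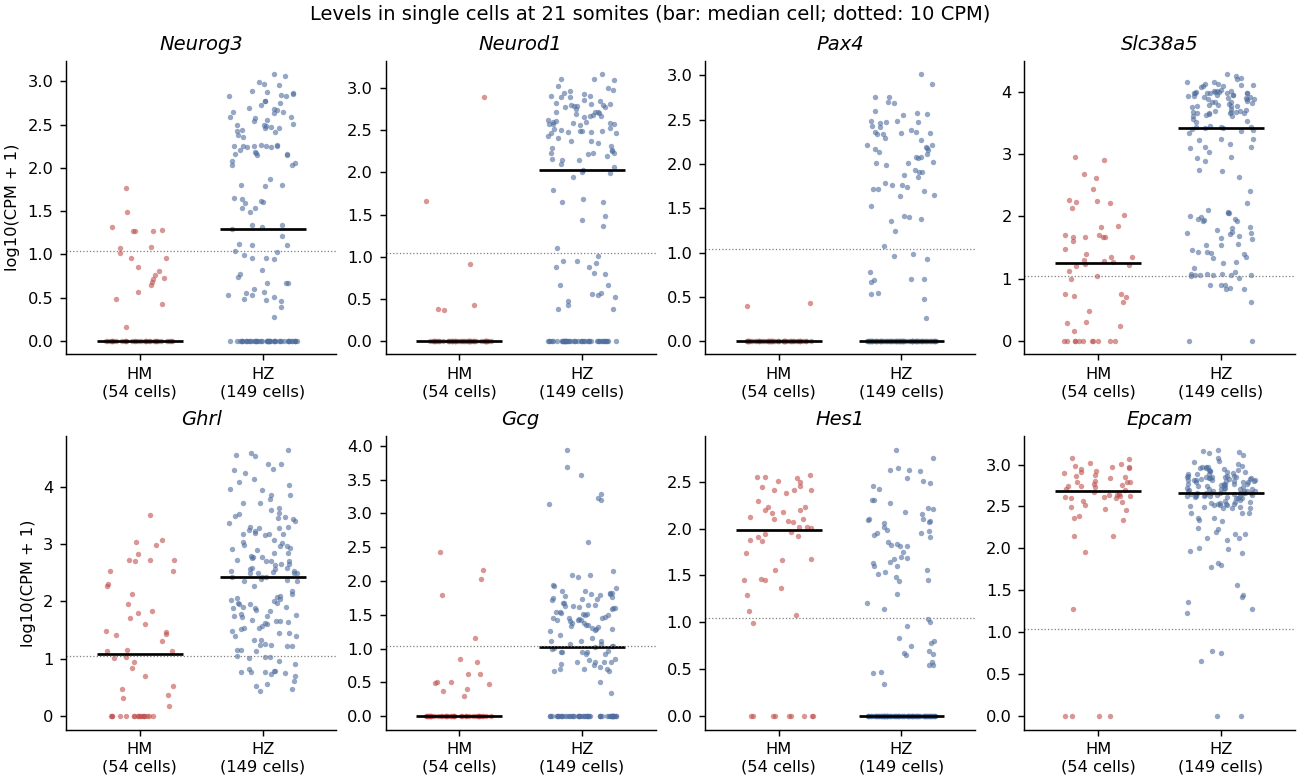
Levels in the 54 HM cells (left) and 149 HZ cells (right) at 21 somites, as log10(CPM + 1) for 8 genes, 1 point per cell, with the median cell as a bar and 10 CPM as a dotted line. Endocrine genes are at or near 0 in most HM cells, Hes1 has a higher median in HM (95.2 CPM against 0 in HZ), and the Epcam medians lie close together (487 CPM in HM and 462 in HZ).

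Counted per cell, the endocrine state was nearly missing from HM. The panel was on, with at least 3 of its 12 genes at 50 CPM, in 2 of 54 HM cells (3.70%, 0.452% to 12.7%) and in 99 of 149 HZ cells (66.4%, 58.3% to 74.0%). Among cells of at least 100000 reads the counts were 1 of 36 HM and 88 of 132 HZ cells. No HM cell had more than 3 panel genes on, while 69 HZ cells had 6 or more and 2 had 11. For the 0 of 54 HM cells with 6 or more, a limit of 3 cells allows a share of up to 5.56%, and the exact interval reaches 6.60%. No panel gene was on in 34 HM cells (63.0%) and 27 HZ cells (18.1%). Of the 2 HM cells with the panel on, 1 had Ghrl at 961 CPM, Insm1 at 92.7 CPM and Neurog3 at 57.9 CPM, over 172665 reads. The other had Ghrl at 1072 CPM and 2 reads each of Gcg and Pyy, in a cell of only 18665 reads.

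**Figure D2:**
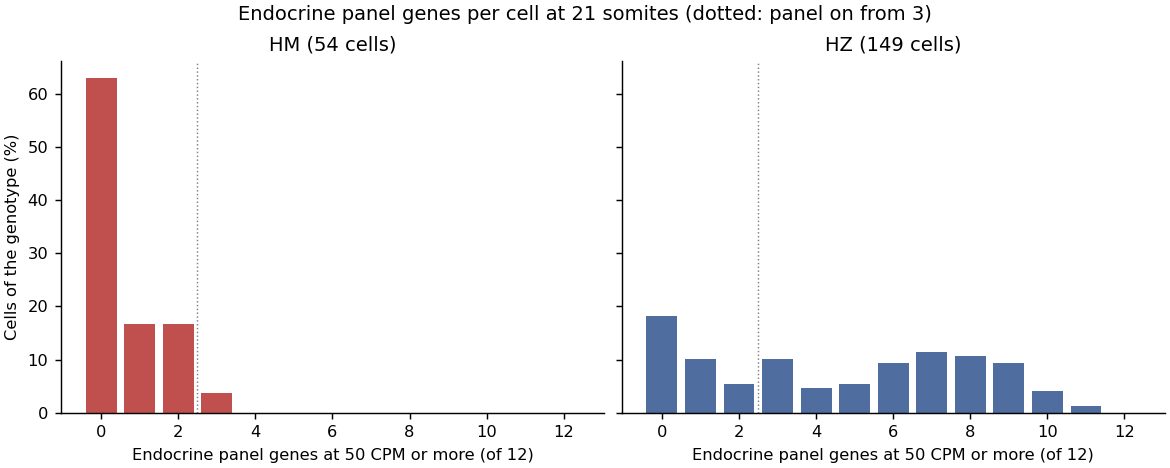
Share of cells of each genotype, in percent, by the number of the 12 endocrine panel genes at 50 CPM or more, for HM (left) and HZ (right). HM cells stop at 3 genes, with 63.0% at 0, while HZ cells spread up to 11 genes and 18.1% are at 0.

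Across the transcriptome, 7867 of 26313 listed genes were compared, those with at least 20 CPM in the higher pool and 10 CPM in at least 10% of its cells. Of these, 262 were at least 4-fold lower in HM (3.33% of those compared) and 133 at least 4-fold higher (1.69%). The median log2 ratio was -0.05. Named here are genes among the 12 lowest ratios. Hpca, a neuronal calcium sensor, had no read in HM, against 105 CPM in HZ, and so was at least 1333-fold lower (from a floor of 3 reads over the HM pool). Gng4, a G protein gamma subunit, had 2 reads in HM and 86.0 CPM in HZ (log2 ratio of the reads as counted -10.68, -13.73 to -8.83, or -10.10 with HM set to the floor). The neuronal tubulin Tubb3 had 0.708 CPM in HM and 669 in HZ, and 4 HM and 109 HZ cells were at 10 CPM. The lipid-sensing receptor Gpr119 had 2 reads in HM and 64.4 CPM in HZ, where 34 cells were at 10 CPM. The synaptic adhesion gene Lrrtm3 and the phosphatase inhibitor Ppp1r17 had no read in HM, against 59.4 and 48.7 CPM in HZ, and so were at least 756-fold and 620-fold lower. Dbpht2, 1700086L19Rik, Myt1, Pax4 and Disp2 were also among them, at 0.786, 0.262, 0.0524, 0.105 and 0.0262 CPM in HM and 597, 173, 45.1, 59.1 and 39.9 CPM in HZ. Dbpht2 (74296668 to 74302008) and 1700086L19Rik (74284242 to 74295945) are neighbours on the plus strand of chromosome 12. Whether their reads come from 1 transcript was not tested. Endocrine factors (Myt1, Pax4) thus stood beside genes better known from neurons (Hpca, Tubb3, Lrrtm3).

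**Figure D3:**
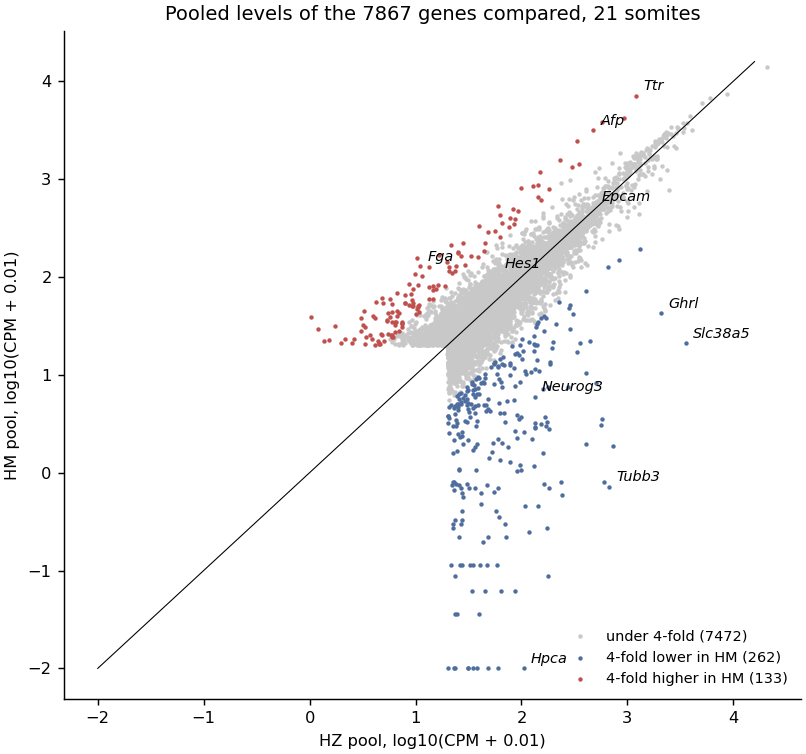
Pooled level in HM (vertical) against HZ (horizontal) for the 7867 genes compared at 21 somites, as log10(CPM + 0.01), with the line of equal levels. The 262 genes at least 4-fold lower in HM reach down to pools with no HM read (bottom row, such as Hpca), while the 133 at least 4-fold higher stay nearer the line.

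Neurog3 binds E-boxes, hexamers of the form CANNTG, with a preference for CAGATG known from work on its targets. Promoter windows of RefSeq (GRCm38.p6, the 250 bases before a transcription start) were searched on both strands for CANNTG, which reads the same way on both, and for CAGATG, whose other strand reads CATCTG and which is itself an instance of CANNTG. Windows were listed for 29 of the 41 named genes at least 4-fold lower in HM, and 6 of these genes had CAGATG on either strand. Shown are 4 of the 6 and, for contrast, Neurod1, a known target in mice whose window holds CANNTG once and CAGATG not at all. Capitals mark each CANNTG. The windows lie at chr13:13783809-13784058 (Gng4, plus strand), chr12:74284026-74284275 (1700086L19Rik, plus), chr9:121495695-121495944 (Cck, minus), chr2:62483654-62483903 (Gcg, minus) and chr2:79456637-79456886 (Neurod1, minus), and each is written 5′ to 3′ on the strand of its gene.
Gng4: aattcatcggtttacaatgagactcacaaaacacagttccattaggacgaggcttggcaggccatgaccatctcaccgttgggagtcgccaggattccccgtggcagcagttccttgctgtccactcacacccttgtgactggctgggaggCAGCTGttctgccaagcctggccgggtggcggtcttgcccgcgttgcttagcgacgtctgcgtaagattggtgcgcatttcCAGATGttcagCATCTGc
1700086L19Rik: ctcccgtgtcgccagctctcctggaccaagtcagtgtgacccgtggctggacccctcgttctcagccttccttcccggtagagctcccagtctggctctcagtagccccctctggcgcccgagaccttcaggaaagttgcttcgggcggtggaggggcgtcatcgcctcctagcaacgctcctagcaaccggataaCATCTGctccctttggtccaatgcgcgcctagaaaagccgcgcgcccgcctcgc
Cck: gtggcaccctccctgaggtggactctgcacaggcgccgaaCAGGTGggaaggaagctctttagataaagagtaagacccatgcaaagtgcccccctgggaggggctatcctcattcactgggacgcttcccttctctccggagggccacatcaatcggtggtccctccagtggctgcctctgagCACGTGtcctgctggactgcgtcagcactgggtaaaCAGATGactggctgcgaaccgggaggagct
Gcg: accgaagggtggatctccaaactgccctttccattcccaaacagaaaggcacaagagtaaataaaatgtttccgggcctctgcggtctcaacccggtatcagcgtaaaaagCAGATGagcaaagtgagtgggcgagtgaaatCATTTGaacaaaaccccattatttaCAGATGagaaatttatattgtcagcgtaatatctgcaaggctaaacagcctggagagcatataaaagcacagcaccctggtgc
Neurod1: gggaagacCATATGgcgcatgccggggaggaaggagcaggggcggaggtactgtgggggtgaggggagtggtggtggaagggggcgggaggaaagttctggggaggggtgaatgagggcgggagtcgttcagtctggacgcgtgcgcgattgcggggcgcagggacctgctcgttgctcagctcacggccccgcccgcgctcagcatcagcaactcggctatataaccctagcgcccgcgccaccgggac
In Gng4 a CAGATG begins 18 bases and a CATCTG 7 bases before the start. In 1700086L19Rik the CATCTG begins 54 bases before it. In Cck the CAGATG begins 30 bases, and in Gcg 139 and 83 bases, before the start. A gene can have more than 1 window, and some genes had none. CAGATG on either strand was found in 17.9% of 262 windows from 191 genes 4-fold lower in HM. The share was 12.6% of 127 windows from 99 genes 4-fold higher, 9.20% of 7912 windows from 6125 genes compared and 14.4% of all 32841 windows listed. CANNTG was found in 67.6%, 71.7%, 55.3% and 66.2% of the same windows. A match describes the letters only and is not a binding site.

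Of 27 listed endocrine transcription factors 23 were compared, 18 of them at least 4-fold lower in HM and none higher, with a median log2 ratio of -5.61, where 3.33% of all genes compared were as low. Pax6, a paired homeobox factor of endocrine cells, had 0.577 CPM in HM and 242 in HZ (log2 ratio -8.72, -9.39 to -8.12), and 2 HM and 66 HZ cells were at 10 CPM. Neurod1, the bHLH factor downstream of Neurog3, had 0.786 CPM in HM and 234 in HZ. At 10 CPM were 2 HM and 86 HZ cells: of the HM cells 1 had 45.2 CPM and held 66.7% of the 30 HM reads, and the other, at 790 CPM, had only 2533 reads in all. Pax4, a factor of islet cell fate, was at 0 to 1.70 CPM in HM cells and at up to 1022 CPM in HZ cells. Isl1, a LIM homeobox factor, had 3.56 CPM in HM and 574 in HZ, with 8 and 107 cells at 10 CPM. Insm1, a zinc finger factor of endocrine precursors, had 3.14 CPM in HM and 153 in HZ. Fev, a marker of endocrine precursors, was low in both, at 0.550 CPM in HM and 28.2 in HZ, with 3 and 23 cells at 10 CPM. Members near equal levels were Sox4 (22.5 CPM in HM, 20.5 in HZ), Sox11 (1163 and 997) and Peg3 (1684 and 1920), genes that many embryonic tissues express. Rfx6, a winged helix factor of gut endoderm and islets, kept 68.7 CPM in HM against 149 CPM in HZ, and 57.4% of HM cells were at 10 CPM.

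Of 17 listed hormone and amine synthesis genes 7 were compared, 5 of them at least 4-fold lower in HM, with a median log2 ratio of -6.68. Ghrl, which encodes ghrelin, was the most abundant, at 42.6 CPM in HM and 2090 in HZ. Its cells ran from 0 to 3158 CPM in HM, with a median of 11.3, and from 1.75 to 44453 CPM in HZ, with a median of 266. The ranges overlapped: 27 HM cells (50.0%) and 130 HZ cells (87.2%) were at 10 CPM, and 17 and 104 at 50 CPM. Gcg, the glucagon gene, had 1.57 CPM in HM and 161 in HZ, with 5 and 72 cells at 10 CPM, and 1 HZ cell held 30.8% of its HZ reads. Ghrl without Gcg was the usual combination: at 50 CPM, 14 HM cells had Ghrl alone, 3 both and 1 Gcg alone, while 78 HZ cells had Ghrl alone, 26 both and 2 Gcg alone. Shallow cells weigh on the HM counts, since in a cell under 20000 reads a single read is at least 50 CPM. Of the 17 HM cells with Ghrl at 50 CPM 10 had under 20000 reads, and the cell at 3158 CPM had 2533 reads. Among cells of at least 100000 reads Ghrl was at 50 CPM in 6 of 36 HM and 90 of 132 HZ cells, and Gcg in 0 HM and 24 HZ cells. Pyy, encoding peptide YY, had 3.07 CPM in HM and 563 in HZ. Cck, encoding cholecystokinin, had 0.760 CPM in HM and 164 in HZ. Ins2, an insulin gene, had no read in HM, against 37.7 CPM in HZ (at least 480-fold lower), and 73 HZ cells were at 10 CPM.

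Genes of hormone processing, granules and release were lower as a group. Of 29 listed 18 were compared, and 15 of those were at least 4-fold lower in HM, with a median of -4.78. The chromogranin gene Chga had 2.65 CPM in HM and 86.9 in HZ, and 2 HM and 65 HZ cells were at 10 CPM. The SNARE gene Snap25 and the secretogranin gene Scg3 had no read in HM, against 35.0 and 23.4 CPM in HZ, and so were at least 445-fold and 297-fold lower. The prohormone convertase Pcsk2 had 4 reads in HM and 32.5 CPM in HZ, and Rab3c, of vesicle docking, 2 reads in HM and 33.8 CPM in HZ. Of 22 channels and nutrient receptors 8 were compared and 7 were at least 4-fold lower (median -5.25). Slc38a5, an amino acid transporter of early endocrine cells, was the most abundant of them. It had 21.1 CPM in HM and 3555 in HZ, and its median cell 17.0 CPM in HM and 2637 in HZ. It was still detected at 10 CPM in 32 HM cells (59.3%), beside 139 HZ cells (93.3%). The potassium channel regulator Abcc8 had 0.629 CPM in HM and 55.1 in HZ.

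Of 10 genes of cell cycle exit compared 4 were at least 4-fold lower in HM and 2 had a positive ratio (median -0.95). The antiproliferative gene Btg2 had 22.4 CPM in HM and 448 in HZ. The cyclin-dependent kinase inhibitor Cdkn1a had 126 CPM in HM and 656 in HZ, at medians of 84.4 and 543 CPM per cell. The stress sensors Gadd45a and Gadd45g had 8.52 and 14.0 CPM in HM and 96.4 and 139 CPM in HZ, while Cdkn1c differed little (226 CPM in HM, 302 in HZ). All 22 G2 and M phase genes had a positive log2 ratio (median 0.86), 8 of them at least 2-fold and none 4-fold, against 3629 of all 7867 genes with a positive ratio. Of the 22 G2 and M genes and 20 S phase genes tested across stages by edgeR 0 rose and 0 fell at an adjusted p under 0.05. At 18 somites 3 of the 22 genes had a positive ratio, and at 24 somites 21. Cdk1, the mitotic kinase, had 305 CPM in HM and 134 in HZ, in 42 HM cells (77.8%) and 66 HZ cells (44.3%) at 10 CPM. The sum of the 22 genes per cell had a median of 1860 CPM in HM and 176 in HZ. Within HZ it was 114 CPM in cells with the panel on and 1574 CPM in cells with it off. Of 19 S phase genes 17 had a positive ratio (median 0.36), the largest being that of the replication licensing factor Cdt1 (102 CPM in HM, 44.2 in HZ). Among cells with the panel off the medians were 0.21 for the G2 and M genes and -0.12 for the S phase genes.

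Among Notch genes, the ligands Dll1, Dll3 and Jag1 and the modulators Mfng and Mib1 were lower in HM, while the receptors Notch2 and Notch3 were not. Of 10 ligand, receptor and modulator genes compared 2 were at least 4-fold lower in HM (median -1.56). The divergent ligand Dll3 had 0.445 CPM in HM and 142 in HZ, in 1 HM and 93 HZ cells at 10 CPM. The glycosyltransferase Mfng had 2.20 CPM in HM and 124 in HZ. The ligand Dll1 stayed just inside 4-fold, at 11.7 CPM in HM and 46.3 in HZ, and the ligand ubiquitin ligase Mib1 had 58.2 CPM in HM and 208 in HZ. The receptor Notch2 had 237 CPM in HM and 152 in HZ. Of 5 genes compared among Hes, Hey and Id genes 4 had a positive ratio (median 0.77). The Notch target Hes1, a repressor of Neurog3 in mice, had 108 CPM in HM and 58.7 in HZ, and 44 HM cells (81.5%, 68.6% to 90.7%) and 53 HZ cells (35.6%, 27.9% to 43.8%) were at 10 CPM. Of the 53 HZ cells 44 had the endocrine panel off. Thinned to 100000 reads the Hes1 shares were 86.1% in HM and 40.2% in HZ. The Id genes, inhibitors of bHLH factors, were higher as well: Id2 had 711 CPM in HM and 351 in HZ, and Id1 100.2 CPM in HM and 58.8 in HZ. Hes6, which unlike Hes1 is found in differentiating cells, had 42.5 CPM in HM and 153 in HZ.

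Progenitor and epithelial genes differed less. Of 13 pancreatic progenitor factors compared 1 was at least 4-fold lower and none higher in HM (median 0.01). That 1 was Prox1, a homeobox factor of pancreas and liver, at 33.1 CPM in HM and 213 in HZ. The forkhead factor Foxa2 had 46.3 CPM in HM and 165 in HZ. Pdx1, the pancreatic homeobox factor, had 20.3 CPM in HM (18.9 to 21.8) and 10.4 CPM in HZ (9.61 to 11.2), and 11 HM cells (20.4%, 10.6% to 33.5%) and 20 HZ cells (13.4%, 8.40% to 20.0%) were at 10 CPM, so the shares overlapped in counting error. Sox9, a progenitor factor, had 161 CPM in HM and 129 in HZ. Epcam, stained for in the sort, had 520 CPM in HM and 491 in HZ. The epithelial adhesion list also holds mesenchymal genes such as Vim and Zeb1. Of its 18 genes compared 14 had a positive ratio, against 3629 of all 7867 genes. Only the mesenchymal repressor Zeb1 was 4-fold lower (0.393 CPM in HM, 27.6 in HZ). Among cells with the panel off 9 of 17 had a positive ratio. The claudin Cldn7 had 276 CPM in HM and 124 in HZ, and the keratin Krt7 307 CPM in HM and 834 in HZ.

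Few regional genes of the gut were high enough to be compared, 4 of 18 intestinal and 1 of 19 foregut factors. All 4 intestinal factors had a positive ratio (median 1.40), 1 of them past 4-fold, while at 18 somites 1 of the 4 was positive (median -0.42). The galectin Lgals2 had 352 CPM in HM and 65.7 in HZ, in 31 HM and 28 HZ cells at 10 CPM, and was the intestinal factor past 4-fold. Cdx2, the caudal factor of intestine, had 83.8 CPM in HM and 45.8 in HZ, with 37 HM cells (68.5%) and 33 HZ cells (22.1%) at 10 CPM. Prdm1, a repressor of early gut endoderm and the foregut factor compared, had 45.0 CPM in HM and 13.6 in HZ. Of 6 Hedgehog genes compared 5 had a positive ratio (median 0.83), among them the ligands Shh (41.2 CPM in HM, 17.0 in HZ) and Ihh (41.9 and 20.4). The dissociation stress genes had a median of 0.13 over 6 compared, with Klf6 at 63.2 CPM in HM and 21.9 in HZ, and the unfolded protein genes a median of -0.10 over 11.

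Hepatic markers were higher in HM, and few cells of either genotype had many of them. Of 12 hepatic markers 10 were compared and 9 of them were at least 4-fold higher in HM, with a median log2 ratio of 2.72. At 18 somites 4 of the 10 had a positive ratio (median -0.09) and at 24 somites 9 (median 2.74). Across stages 0 of the 12 rose in edgeR. The prealbumin gene Ttr had 7072 CPM in HM and 1197 in HZ. The apolipoprotein gene Apoa1 had 3800 CPM in HM and 576 in HZ, and Afp, alpha-fetoprotein, 3157 CPM in HM and 477 in HZ. The cell with the most reads of each held 19.9% of Ttr, 16.6% of Apoa1 and 16.9% of Afp reads in HM and 47.0%, 70.9% and 51.3% in HZ. The 12 highest ratios ran from 1700019B21Rik (39.0 CPM in HM, 1.02 CPM in HZ, log2 ratio 5.25, 4.90 to 5.64) and the anion transporter Slco4c1 (29.2 and 1.18 CPM) through Ifi27l2b, Serpinb1a, 4933402E13Rik, the water channel Aqp8, the connexin Gjb2, Nxf7, the amino acid transporter Slc7a9, the scaffold Pdzk1 and the fibrinogen gene Fga (128 CPM in HM, 11.1 in HZ) to 2810459M11Rik (54.7 and 4.88 CPM). 1700019B21Rik was at 10 CPM in 8 HM and 2 HZ cells, with 46 HM cells at 0. At least 6 of the 12 hepatic markers were at 50 CPM in 12 HM cells (22.2%, 12.0% to 35.6%) and 11 HZ cells (7.38%, 3.74% to 12.8%). Of these, 2 HM and 4 HZ cells had under 100000 reads, a depth at which few reads can pass 50 CPM. The 12 HM cells had a median of 1222270 reads and held 36.1% of the HM reads, while the 11 HZ cells held 9.28% of the HZ reads. They carried 90.7% of the HM reads and 69.7% of the HZ reads of the 133 genes 4-fold higher in HM. Without these cells 10 of the 133 genes were still 4-fold higher among genes compared there, and 103 kept a positive ratio. These cells were chosen by hepatic markers, 9 of which are among the 133 genes. Part of this loss and of the read shares therefore follows from the choice. Among cells with the panel off the share with 6 or more hepatic markers was 21.2% in HM (11 of 52, 11.1% to 34.7%) and 18.0% in HZ (9 of 50, 8.58% to 31.4%). The summed hepatic markers ran from 0 to 93067 CPM in HM cells and from 26.5 to 74930 CPM in HZ cells. Their part in the result beyond these values was not tested. Alb, the albumin gene, went the other way: it had 4 reads in HM and 13.5 CPM in HZ, and was at 10 CPM in 0 of 54 HM cells, 18 of which had under 100000 reads, and in 36 HZ cells, 30 of them with the endocrine panel on. The HM count allows a share of up to 5.56% by the limit of 3 cells.

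Of the markers of other cell types, neural ones differed along with the endocrine genes. At least 3 of 15 neural or neural crest markers were at 50 CPM in no HM cell and in 96 HZ cells, 92 of them with the endocrine panel on. The summed level of these markers ran from 0 to 409 CPM in HM cells and from 0 to 16053 CPM in HZ cells. All 6 compared were at least 4-fold lower in HM, among them Tubb3, Nefm and Elavl4. Of the defining neural crest markers, Sox10 had no read in HM and 0.677 CPM in HZ, with reads in 5 HZ cells, and Foxd3 no read in HM and 5.76 CPM in HZ, where 9 cells were at 10 CPM. A small set of HZ cells had many neural markers and little of the endocrine transporter Slc38a5. With 6 or more neural markers at 50 CPM and at most 100 CPM of Slc38a5, limits set after the values were seen, there were 0 such cells in HM and 7 in HZ. The endocrine panel counted 6 of the 7 as on, at 140 to 1447 CPM of Neurod1 but 4.08 to 33.7 CPM of Ghrl, 7.06 to 100.0 CPM of Slc38a5 and 3.54 to 416 CPM of Epcam. Without the 7 cells the panel was on in 3.70% of HM and 65.5% of HZ cells (93 of 142), and 259 genes were at least 4-fold lower and 124 at least 4-fold higher in HM. The part of neural cells in the endocrine result was not tested beyond these values. Mesenchyme markers summed to 38.8 CPM in the HM pool and 104 CPM in the HZ pool, and no HM cell and 3 HZ cells had 3 or more. Endothelial markers summed to 3.01 CPM in HM and 3.94 in HZ, and blood markers to 0.0524 and 1.98 CPM.

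Fewer genes were past 4-fold when only cells with the panel off were compared. This left 52 HM cells with 37968986 reads and 50 HZ cells with 28658628 reads. The gate uses 12 of the measured genes, so their own values here follow from it. Of 7576 genes compared in these cells 41 were at least 4-fold lower in HM (0.541%) and 49 at least 4-fold higher (0.647%). Among the 262 genes lower with all cells, 239 kept a negative ratio in these cells, with a median log2 ratio of -1.35. Of the 262, 78 were high enough to be compared there and 28 of these were 4-fold lower. All 133 genes higher with all cells kept a positive ratio (median 1.71), and 43 were still 4-fold higher. Of all 7576 genes compared in these cells 3684 had a positive ratio. The 262 and 133 genes were picked with these same cells included, 52 of the 54 HM cells among them. A kept sign therefore follows in part from that choice. Neurog3 had 5.72 CPM in HM and 9.04 in HZ. Hes1 had 108 CPM in HM and 110 in HZ, Cdx2 83.5 and 99.3, Mki67, a proliferation marker, 156 and 166, and Pdx1 19.6 and 17.3, log2 ratios between -0.25 and 0.19, where all cells gave 0.63 to 0.96. The 4 endocrine lists, the Notch list and the Hes list had medians between -1.16 and -0.13, against -0.01 for all genes compared here. The endocrine medians are not over the same genes as with all cells, since members no longer high enough dropped out. Compared here were 8 endocrine factors (23 with all cells), 3 hormone genes (7), 2 granule genes (18) and 3 channels and receptors (8). Slc38a5 had 20.7 CPM in HM and 83.5 in HZ, 4-fold lower, and Ghrl 37.9 CPM in HM and 283 in HZ. Single cells weigh on these HZ levels. The highest HZ cell for Slc38a5 had 1240 CPM over 1037205 reads, and that for Ghrl 10910 CPM over 583114 reads. Ratios without these cells were not computed. Among the 12 lowest ratios in these cells were the neuronal genes Tubb3 (0.658 CPM in HM, 118 in HZ), Elavl4 (0.237 and 36.6) and Nefm (1.87 and 45.1), with Neurod1 (0.790 and 62.2). Taken gene by gene, the HZ cell with the most reads held 37.3% of Tubb3, 51.3% of Elavl4, 52.4% of Nefm and 57.5% of Neurod1 reads. It was not the same cell for all 4 genes. Fev turned round, at 0.553 CPM in HM and 0.105 in HZ, with 21 reads in HM, of which 1 cell held 85.7%, and 3 in HZ.

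**Figure D4:**
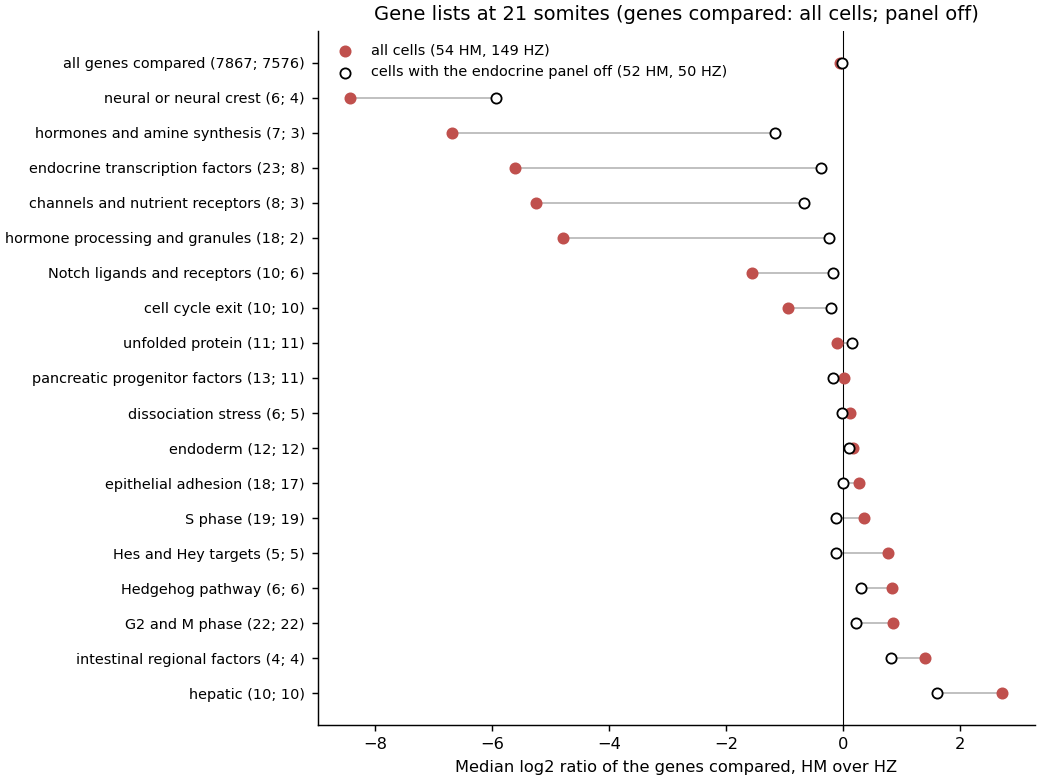
Median log2 ratio, HM over HZ, of the genes compared in each list, with all cells (filled) and with cells of the panel off (open), and the numbers of genes compared in each beside the name. The endocrine lists have medians of -6.68 to -4.78 with all cells and of -1.16 to -0.23 with the panel off, where fewer of their genes were compared. Neural markers have a median of -8.43 over 6 genes with all cells and of -5.93 over 4 genes with the panel off. Hepatic markers have medians of 2.72 and 1.61, with 9 and 1 of their 10 genes at least 4-fold higher.

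Whether the 21 somite difference was shared by other stages was asked with edgeR's quasi-likelihood test on 11 pools of a genotype and stage, with genotype and stage as factors and 4 residual degrees of freedom. HM and HZ shared 18 somites (17 HM, 61 HZ cells), 21 and 24 somites (80 HM, 85 HZ cells). P-values measure the spread of the pools around the fitted genotype and stage effects, and each stage was collected from embryos of its own. Ngn3Cre pools add to this spread, so it is not that of the HM to HZ difference alone. Of 18420 genes tested 254 fell in HM (1.38%) and 17 rose (0.0923%), at an adjusted p under 0.05. Leaving out the HZ, HM or Ngn3Cre pool of 21 somites lowered the first count to 88, 127 or 152, leaving out the HZ pool of 24 somites gave 130, and the second count was 0 to 31 with a pool left out. The 21 somite pools are part of this fit, so it is no independent check of them. Of the 262 genes lower at 21 somites 230 were lower at 18 and 237 at 24 somites, and 115 fell across stages. Of the 133 genes higher at 21 somites 53 were higher at 18 and 125 at 24 somites, and 1 rose across stages. Of all 7867 genes compared at 21 somites 3672 had a positive ratio at 18 and 3978 at 24 somites. Gpr119 fell by 9.38 ± 0.47 on the log2 scale (SE, edgeR adjusted p = 3.25e-05), Pax6 by 6.90 ± 0.56 (0.000584) and Slc38a5 by 5.91 ± 0.52 (0.000609), none of which lost its call with any 1 pool left out. Gpr119 had few or no reads in the HM pools, so its fitted size and SE depend on the prior count. By list 12 of 27 endocrine factors, 4 of 16 hormone genes, 14 of 29 granule genes and 6 of 21 channels tested fell and none rose. Cdkn1a fell by 2.12 ± 0.28 (edgeR adjusted p = 0.00660). Hpca (-4.67 ± 1.33, adjusted p = 0.153), Tubb3 (-3.83 ± 1.84, 0.414), Neurod1 (-4.13 ± 1.62, 0.298), Ghrl (-3.62 ± 1.17, 0.208) and Gcg (-6.54 ± 1.57, 0.0895) did not pass in edgeR. Tubb3 differed between stages: it had 5.38 CPM in HM and 325 in HZ at 18 somites, but 440 CPM in HM and 364 in HZ at 24. Hes1 (0.84 ± 0.33, adjusted p = 0.291) and Shh (1.25 ± 0.26, 0.0561) did not pass either. Without the cells of the panel on, edgeR called 0 genes in either direction among 16255 tested, with 563 at an unadjusted p under 0.05 and 2 residual degrees of freedom. DESeq2 was not applied there.

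A term for HM at 21 somites, added to the same model, tested which genes had a difference at 21 somites that departed from the one at 18 and 24. It passed for 8 of 18420 genes (0.0434%) with 3 residual degrees of freedom, and 884 genes had an unadjusted p under 0.05. The ratio of 6 genes was lower at 21 somites than at the other 2 stages. Dll3 had log2 ratios of -3.60, -8.32 and -4.06 at 18, 21 and 24 somites (departure -4.73, edgeR adjusted p = 0.0350). Isl1 had -2.11, -7.33 and -3.63 (departure -4.55, edgeR adjusted p = 0.0393), and the transcriptional corepressor Runx1t1 -4.17, -7.70 and -3.12 (-4.36, edgeR adjusted p = 0.0393). The synaptotagmin Syt13 had -2.29, -5.37 and -2.22 (-3.13, edgeR adjusted p = 0.0350). Snap25 had 0.867, 0 and 26.1 CPM in HM and 5.37, 35.0 and 62.0 CPM in HZ at 18, 21 and 24 somites, and Insrr, a receptor kinase of the insulin receptor family, 5.55, 0 and 3.28 CPM in HM and 9.81, 31.3 and 13.4 CPM in HZ. With no HM read at 21 somites, the fitted departures of these 2 depend on the prior count and are no bound (edgeR adjusted p = 0.0350 and 0.0393). The other 2 genes were higher in HM at 21 somites alone. Ttr had 3804, 7072 and 698 CPM in HM and 5516, 1197 and 1005 CPM in HZ (departure 3.63, edgeR adjusted p = 0.0350). The cell surface glycoprotein Emb had 570, 983 and 299 CPM in HM and 604, 287 and 395 CPM in HZ (2.09, edgeR adjusted p = 0.0461). These calls depend on the Ngn3Cre pool of 21 somites, which shares the stage effect: without it none of the 8 passed, and without HM at 24 somites Dll3, Runx1t1, Emb, Syt13 and Ttr did not. The departure did not pass for Neurog3 (-1.65, edgeR adjusted p = 0.908) or Ghrl (-3.19, 1.00).

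**Figure D5:**
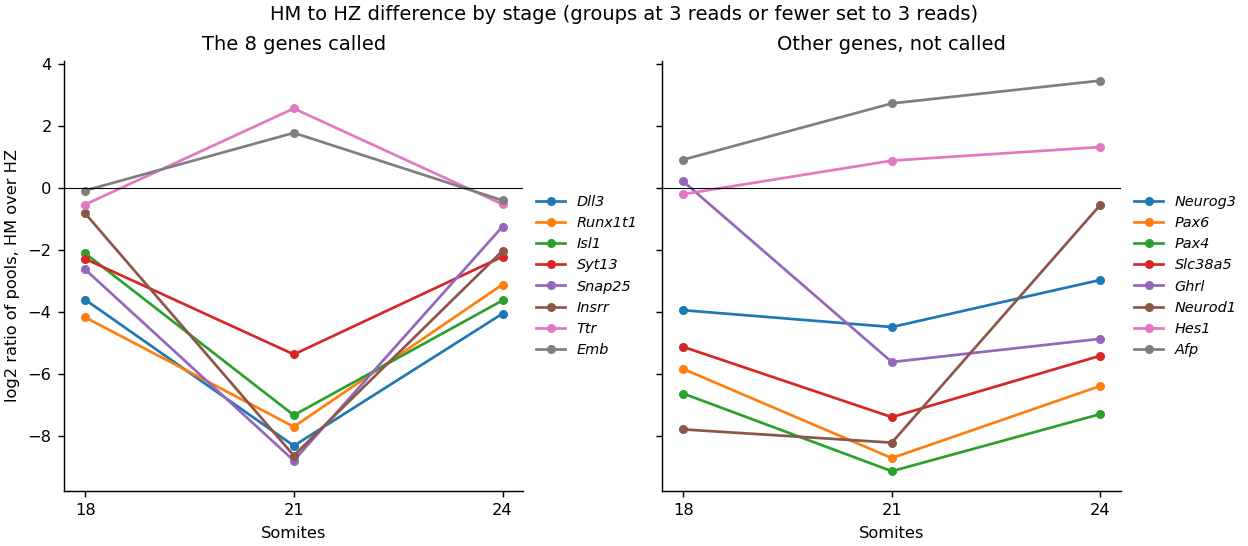
Log2 ratio of the pools, HM over HZ, at 18, 21 and 24 somites, for the 8 genes whose difference at 21 somites departed from the other stages (left) and 8 other genes (right), with pools of 3 reads or fewer set to 3 reads. Dll3, Runx1t1, Isl1, Syt13, Snap25 and Insrr dip at 21 somites and Ttr and Emb are above 0 there alone, while Neurog3 stays between -4.49 and -2.97.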

How the data were processed

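The authors deposited unscaled read counts by gene for every cell, and TPM values of the same cells. The tools named, per the submitters' processing notes, are HISAT2 2.1.0, Trimmomatic 0.39 and FastQC 0.11.9, and the builds GRCm38 and mm10. How reads were counted (tool, annotation, strand, molecular identifiers) and whether cells were filtered are points not given in the sources used here. Reads of overlapping genes or close paralogs may therefore be mixed. No doublet caller was run and no cell was left out of the main values.

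Genotype and stage came from the sample titles. Counts were summed per genotype and stage, and CPM used the pool's column sum. A group at 3 reads or fewer was set to 3 reads for ratios, except where a named gene's ratio is given for its reads as counted. With 1 sample per genotype at 21 somites no test was made there. The fits over stages used edgeR 4.0.16 (R 4.3.3, TMM scaling, default filter, Benjamini-Hochberg adjustment) on the 11 pools of at least 10 cells. They include Ngn3Cre pools, HM at 15 and HZ at 27 somites. Each SE is the size of the fitted log2 change divided by the square root of edgeR's F statistic, and is not an SE that edgeR reports. Genes were named by a rule: the 12 lowest and 12 highest ratios among compared genes, up to 4 members of each of 16 lists with the largest ratio in either direction, 15 landmarks and up to 8 departing genes. The marker genes and list members given beside these (such as Alb, Sox11, Notch2, Insm1 and Apoa1) were named after their values were seen. The comparison, lists and markers were chosen with earlier results of these data known. Some genes the rule names are not reported here. No cells were clustered. Alternatives included means over cells, TMM factors, depth, thinning, the authors' TPM, other thresholds, DESeq2 1.42.0 and leaving out cells or pools. Gene positions came from GENCODE vM21, which held 94 of the 95 named genes, and promoter sequences from RefSeq. Analyses used Python 3.11.15 and scipy 1.17.1.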

Additional observations from a re-analysis of the deposited data

Results flagged for a closer look

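For 8 genes the HM to HZ difference at 21 somites departed from that at 18 and 24 somites by the added term in edgeR. The departures on the log2 scale were -11.51 for Snap25, 3.63 for Ttr, -4.73 for Dll3, -3.13 for Syt13, -11.64 for Insrr, -4.36 for Runx1t1, -4.55 for Isl1 and 2.09 for Emb. With 1 pool left out at a time all 8 kept their sign in the 9 fits that keep both 21 somite pools. Snap25 and Isl1 lost their call in 1 of the 9 fits, Ttr, Dll3, Syt13, Insrr and Runx1t1 in 2 and Emb in 4, each time including the fit without the Ngn3Cre pool of 21 somites. The other losses were without HM at 24 somites (Dll3, Syt13, Runx1t1, Ttr and Emb), without Ngn3Cre at 27 somites (Insrr and Emb) and without Ngn3Cre at 24 somites (Emb).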

How the results depend on the processing

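The 262 genes at least 4-fold lower in HM became 41 without cells with the endocrine panel on and 42 when cells under 100000 reads were left out too, a setting added after seeing the data. They became 686 at 2-fold and 538 at a minimum of 5 CPM. The 133 genes at least 4-fold higher became 49 and 52 under the first pair of settings, 38 without cells with 6 or more hepatic markers (also added after seeing the data), 546 at 2-fold and 238 at 5 CPM. By means of cell CPM, in which every cell weighs the same, 306 were lower and 162 higher, and 75 of the 133 were among these 162. Across stages, DESeq2 called 1177 genes lower and 350 higher, and edgeR without panel cells 0 and 0. With a pool left out the counts were 88 to 294 lower and 0 to 31 higher, with the fewest lower without HZ at 21 somites and 0 higher without HM at 21 or HZ at 24 somites. The departure at 21 somites passed for 168 genes in DESeq2 and for 0 to 42 with a pool left out (0 if this was Ngn3Cre at 21 somites, 42 or 40 if it was the HM or HZ pool of 18 somites), the fit without HM or HZ at 21 somites giving no value. With 1 or more panel genes the share of cells was 37.0% in HM and 81.9% in HZ. Of the 55 named genes past 4-fold, 38 of the 54 with a value stayed so without panel cells. Fev reversed there, to a log2 ratio of 2.40, or 2.18 when cells under 100000 reads were left out too. The cause was not tested. Under TMM, thinning, the depth minimum, means over cells and the authors' TPM all 55 stayed past 4-fold, as they did without the 7 HZ cells of many neural markers and little Slc38a5 (added after seeing the data). No paired analysis was possible because the cell numbers in the labels name cells only and each genotype is 1 sample at 21 somites. Depth limits low genes: a pool with no read allows up to 3 reads.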
